A study of Mus musculus with 28 samples.

Results

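The collagen genes of mouse skin were described here as the 43 genes whose name consists of Col, a number, the letter a and a number, with Col17a1 left out. The count table of the whole-body experiment listed 55573 genes, that of the keratinocyte experiment listed 57126, and both listed all 43 under the same Ensembl identifiers. By the structure their products form, 11 of the 43 genes were placed among the fibrillar collagens, 9 among those of basement membranes, 6 among the beaded collagens of type VI and 17 among other types.

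Collagens are extracellular proteins whose chains wind around each other in a helix before they are secreted and assembled. Fibrillar collagens, above all types I and III, form the banded fibrils that give the dermis its strength, and they are made by fibroblasts. Type IV collagens form the sheet-like network of basement membranes, and type VII forms the anchoring fibrils that tie the epidermis to the dermis. Type VI assembles into beaded filaments between fibrils and cells, and the FACIT collagens (fibril-associated collagens with interrupted triple helices) sit on the surface of fibrils.

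Gene expression was measured by bulk RNA sequencing of skin from female mice of 12 weeks, whose hair had been shaved and removed with a depilatory cream 5 days before exposure. The irradiated groups received ultraviolet B light (UVB) at 500 mJ/cm2 and the others none. Titles and design text give the harvest as 3 h after exposure, but the treatment protocol gives 1 day, and the labels leave this unresolved. The whole-body experiment held wild-type mice (WT) and mice with the constitutive deletion Vsir-/-, which removes the gene of the immune checkpoint protein VISTA in every cell, with 3 libraries in each of the 4 groups. The keratinocyte experiment held mice with floxed Vsir and no Cre (Vsirfl in the genotype label, Vsirfl/fl in the titles) and K14creVsirfl/fl mice, which carry the same floxed gene and a Cre driven by the keratin 14 promoter, active in basal keratinocytes, with 4 libraries in each of the 4 groups. All mice of the keratinocyte experiment thus carried the floxed gene, and none of the whole-body experiment did. The 2 experiments carry different batch dates and were counted in separate tables, so that experiment and batch cannot be told apart. The design text calls the controls littermates and the libraries biological replicates.

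Whole-body libraries held 30.47 to 43.84 M counts each. Keratinocyte libraries held 7.12 to 31.14 M counts, and 2 of them were shallow, Vsirfl library 1 without UV (7.12 M) and K14creVsirfl/fl library 3 after UV (7.51 M). Vsir checked the labels of the whole-body experiment: WT libraries held 681 to 2091 counts of it and Vsir-/- libraries 81 to 276. In the keratinocyte experiment its level was not lower with the Cre, at a log2 difference of +0.41 without UV (edgeR adjusted p = 0.923) and -0.07 after UV (adjusted p = 0.986). The label names skin, whereas the series title names epidermis. The RNA was that of full skin as far as its markers go: fibroblast markers other than collagens summed to 1170 to 5340 CPM (counts per M counts of the library) in each library, basal keratinocyte markers to 3660 to 12000 and, in the keratinocyte experiment, skeletal muscle markers to 10700 to 66800. In such bulk RNA, fewer cells of a type and less RNA per cell cannot be told apart. Irradiated whole-body libraries also had higher levels of a list of 10 genes that mark body position, Hox genes and Tbx15. The mean log2 level of the list was 2.87 to 3.36 against 1.82 to 2.18 without UV. Of these 10 genes 5 rose in WT and 6 in Vsir-/- mice, beside 8.91% and 11.3% of all genes. In the keratinocyte experiment none rose, and 1 fell in K14creVsirfl/fl mice, where 9.72% of all genes rose or fell. The part of body site in the collagen values was not tested. The non-coding transcript Gm42418 took 7.21 to 14.1% of counts in 10 of the 12 whole-body libraries but 1.02% in Vsir-/- library 2 without UV and 2.07% in Vsir-/- library 3 after UV.

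The 3 promoter windows printed first belong to genes on which the results turn: Col3a1, the most abundant collagen transcript of the whole-body libraries, Col7a1, which rose after UV in both genotypes of that experiment, and Col6a2, which rose in Vsirfl mice. Each is the 250 bases before an annotated start in RefSeq on GRCm38.p6, on the strand of the gene, and overlaps no annotated exon. The Col3a1 window lies at chr1:45311288-45311537 on the plus strand, the Col7a1 window at chr9:108953336-108953585 on the plus strand and the Col6a2 window, that of the more upstream of 2 starts, at chr10:76623631-76623880 on the minus strand. Capitals mark the motif TATAAA, the motif CCAAT or the GC box GGGCGG on either strand, so that on the other strand the second reads ATTGG and the last reads CCGCCC.
Col3a1: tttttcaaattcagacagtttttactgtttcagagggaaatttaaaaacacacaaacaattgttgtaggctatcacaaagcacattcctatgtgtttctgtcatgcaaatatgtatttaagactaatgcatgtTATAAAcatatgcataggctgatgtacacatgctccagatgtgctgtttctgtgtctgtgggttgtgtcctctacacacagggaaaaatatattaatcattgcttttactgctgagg
Col7a1: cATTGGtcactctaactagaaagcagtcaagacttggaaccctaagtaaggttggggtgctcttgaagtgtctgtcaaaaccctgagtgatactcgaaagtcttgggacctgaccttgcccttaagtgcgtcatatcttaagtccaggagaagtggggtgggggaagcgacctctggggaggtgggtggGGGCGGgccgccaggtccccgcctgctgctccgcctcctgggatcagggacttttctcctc
Col6a2: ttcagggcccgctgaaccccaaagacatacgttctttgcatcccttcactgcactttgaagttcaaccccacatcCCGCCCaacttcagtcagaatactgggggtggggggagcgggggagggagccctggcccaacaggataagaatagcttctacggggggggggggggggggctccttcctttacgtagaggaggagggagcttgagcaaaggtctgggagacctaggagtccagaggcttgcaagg
Col3a1 held TATAAA beginning 117 bases before its start. Col7a1 held CCAAT at 249 and GGGCGG at 61 bases before its start, and Col6a2 held GGGCGG at 175. Of the 43 genes, 34 were matched to 37 RefSeq windows, and GGGCGG was found on either strand in 59.5% of those windows against 32.7% of all 32851 windows. The shares were 32.4% against 33.8% for CCAAT, 10.8% against 12.4% for TATAAA and 2.7% against 6.75% for TGANTCA, the AP-1 motif. No motif searched contains the letters of another, and a match describes letters only.

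Several collagen genes lie side by side on GRCm38, the build of the whole-body table's coordinates. Col4a1 and Col4a2 on chromosome 8 start head to head and overlap by 22 bases. Col4a4 and Col4a3 on chromosome 1 start 71 bases apart, and Col4a6 and Col4a5 on the X chromosome start 1308 bases apart. Col3a1 and Col5a2 on chromosome 1 end 24.6 kb from each other, and Col6a2 and Col6a1 on chromosome 10 lie 85.2 kb apart on the same strand. Because the counting is not stated to use strand, reads from the overlap of Col4a1 and Col4a2 cannot be assigned.

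All 43 genes together took 0.55 to 1.34% of counts per library in the whole-body experiment and 0.481 to 1.31% in the keratinocyte experiment. Fibrillar genes made up 76.4% of these collagen counts on average in the former and 69.8% in the latter, and Col1a1, Col1a2 and Col3a1 alone gave 60.2 to 77.3% and 59.4 to 70.9%. Basement membrane genes took 9.31% and 11.2%, beaded genes 9.74% and 14.1%, and the other types 4.58% and 4.96%. The group means of the total share were 0.852 ± 0.273% (SD, n = 3) in WT without UV and 0.885 ± 0.112% after UV. In Vsir-/- skin they were 0.858 ± 0.0742% and 1.26 ± 0.114%. In Vsirfl skin they were 0.67 ± 0.178% (SD, n = 4) and 1.07 ± 0.167%, and in K14creVsirfl/fl skin 0.617 ± 0.11% and 0.639 ± 0.174%. The irradiated and unirradiated libraries did not overlap in Vsir-/- mice (0.776 to 0.921% against 1.13 to 1.34%) or in Vsirfl mice (0.516 to 0.87% against 0.921 to 1.31%). They overlapped in WT and in K14creVsirfl/fl mice.

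Compared per kilobase of exon, levels spanned more than 4 orders of magnitude. Col3a1 led the whole-body experiment at 348 CPM per kilobase (CPM/kb; 207 to 514 over the 12 libraries), ahead of Col1a1 at 242 (127 to 393) and Col1a2 at 153 (80.1 to 274). Col1a1 led the keratinocyte experiment at 345 (204 to 606 over the 16 libraries), ahead of Col3a1 at 125 (65 to 219) and Col1a2 at 107 (61.6 to 188). In both experiments the range of each of these genes overlapped that of its neighbour in the order. Next came Col6a1, at 66.8 CPM/kb in the whole-body and 80.3 in the keratinocyte experiment, and Col4a1, at 43.6 and 38.7. Of the 43 genes, 3 reached 100 CPM/kb in each experiment and 11 lay between 10 and 100. Another 9 and 11 lay between 1 and 10, and 20 and 18 lay below 1. The lowest included Col9a1, Col9a2, Col10a1, Col25a1, Col26a1 and the cartilage collagen Col2a1, and every one of these had libraries with at most 3 counts. The 2 tables were normalized apart, so these levels are set side by side and not tested.

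**Figure D1:**
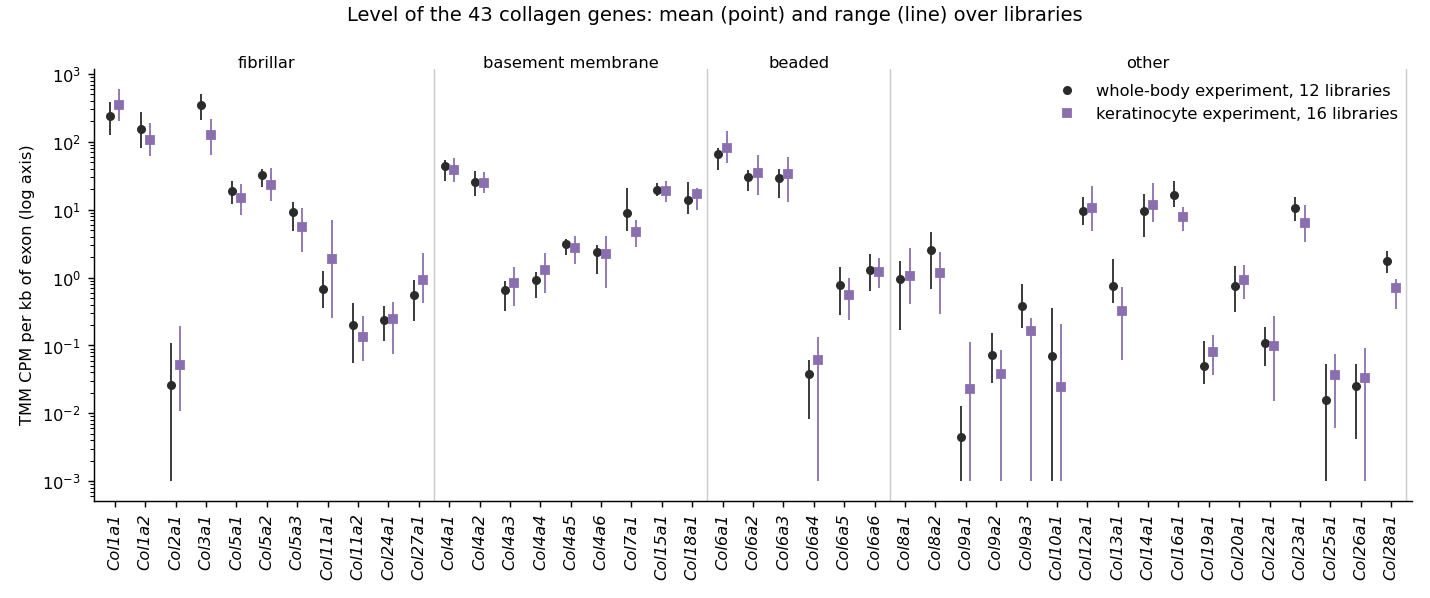
Level of each of the 43 collagen genes in CPM per kilobase of exon on a log axis, grouped by structural class. Points give the mean and lines the range over the 12 whole-body libraries (black) and the 16 keratinocyte libraries (purple), and libraries with no count are drawn at 0.001. Col1a1, Col1a2 and Col3a1 stand at the top in both experiments, and Col9a1, Col10a1, Col25a1 and Col26a1 lie at the low end.

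The first question of the design was how UVB changed expression within each genotype. Of the 41 collagen genes tested in the whole-body experiment, 3 were called in WT mice, all higher after UV: Col20a1, Col7a1 and Col4a6. Among all 20365 genes tested 18.7% were called, 8.91% higher. In Vsir-/- mice 6 rose (Col20a1, Col7a1, Col27a1, Col16a1, Col1a2 and Col3a1) and Col10a1 fell, against 22.4% of all genes called, 11.3% higher and 11.1% lower. Of the 40 tested in the keratinocyte experiment, Col6a1 and Col6a2 rose in Vsirfl mice, against 7.62% of all 19718 genes called and 3.52% called higher. In K14creVsirfl/fl mice 1 of the 40, Col20a1, rose, against 9.72% of all genes called and 4.57% called higher. A gene was called at an adjusted p under 0.05 from edgeR's quasi-likelihood test, adjusted by Benjamini-Hochberg over all genes of the experiment. The share of collagen genes called in either direction was 7.32% in WT, 17.1% in Vsir-/-, 5% in Vsirfl and 2.5% in K14creVsirfl/fl mice, each below that of all genes. This order depended on single libraries: without unirradiated WT library 3 it was 14.6% against 13% of all genes, and without unirradiated Vsirfl library 3 or 4 it was 10% against 6.43% and 15% against 4.97%. Groups did not overlap for 5 of the 41 genes in WT mice, beside 29.4% of all genes, and for 16 in Vsir-/- mice, beside 50.7%. They did not overlap for 2 of the 40 in Vsirfl mice, beside 14.5%, and for 2 in K14creVsirfl/fl mice, beside 17.6%.

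The estimates of most collagen genes lay above 0 whether called or not, and these counts describe the genes that passed the filter on low counts. In WT mice 33 of 41 log2 fold changes were above 0, with a median of +0.28, where the median of all genes was -0.01. In Vsir-/- mice 33 of 41 were above 0 with a median of +0.38, beside +0.02 for all genes. In Vsirfl mice 34 of 40 were above 0 with a median of +0.36, and in K14creVsirfl/fl mice 29 of 40 with a median of +0.20, beside +0.01 for all genes in each. The fibrillar genes had medians of +0.22, +0.68, +0.64 and +0.28 in the same order of genotypes, and the beaded genes +0.26, +0.58, +0.44 and +0.63. Medians of the basement membrane genes were +0.47, +0.19, +0.20 and +0.13, and those of the other types +0.31, +0.19, +0.22 and +0.05. Of the 39 genes tested in all 4 comparisons, 19 were above 0 in every one and 1, Col8a2, in none.

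The counts of called genes moved with single libraries, and so did the shares of all genes called. With every library these shares were 18.7, 22.4, 7.62 and 9.72% in WT, Vsir-/-, Vsirfl and K14creVsirfl/fl mice. In WT mice the collagen count was 6 without unirradiated library 3, beside 13% of all genes. In Vsir-/- mice it was 4, 1 and 3 without unirradiated libraries 1, 2 and 3, and 2 and 4 without irradiated libraries 1 and 2. The same fits called 14.8, 13.5, 14.9, 15.7 and 15.7% of all genes. In Vsirfl mice the count was 0 without unirradiated library 2 or irradiated library 4, beside 4.45 and 4.38% of all genes. It was 4 without unirradiated library 3 (6.43%) and 6 without unirradiated library 4 (4.97%). In K14creVsirfl/fl mice it was 0 without unirradiated library 2 or 3 or irradiated library 2 or 3, beside 5.82 to 6.81% of all genes. It was 2 without irradiated library 4 (6.33%). Without both libraries low in Gm42418 the Vsir-/- count was 1 (Col20a1), beside 7.1% of all genes. Without both shallow libraries Col6a1 alone was called in Vsirfl mice and none in K14creVsirfl/fl mice, beside 7.65 and 8.83%. The replicate number was also fitted as a block, with a common effect per number over both genotypes of an experiment. The counts were then 9 in Vsir-/- and 2 in K14creVsirfl/fl mice, beside 21.6 and 12.9% of all genes. Col8a2 (-1.31, edgeR adjusted p = 0.00268) and Col6a5 (+0.77, adjusted p = 0.0452) were added in the former and Col6a5 (+0.99, adjusted p = 0.0449) in the latter.

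**Figure D2:**
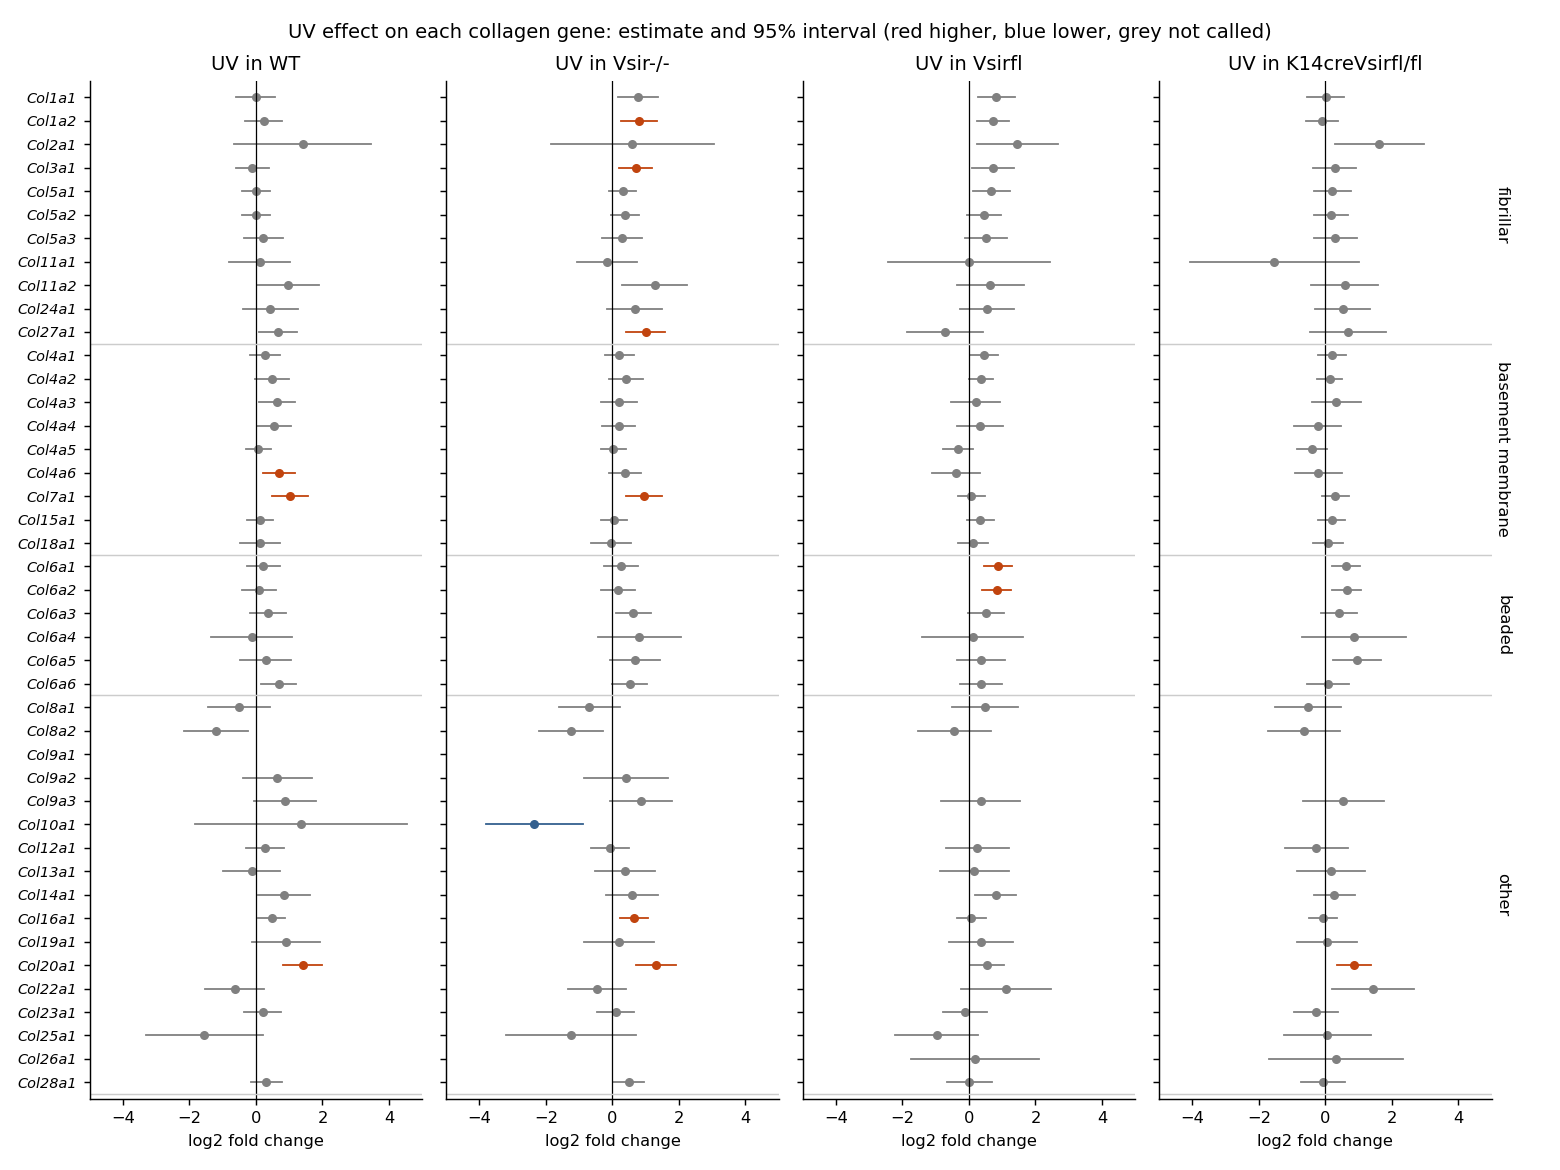
Log2 fold change of each collagen gene after UV against none in the 4 genotypes, one panel each, with points for the estimate and lines for its 95% interval; red genes were called higher, blue lower and grey not called. Col20a1 stands right of 0 in every panel, Col7a1 at +1.02 and +0.95 in the whole-body panels but +0.07 in Vsirfl, and Col6a1 and Col6a2 are red in Vsirfl alone.

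Col1a1 (chr11:94936224-94953042) encodes the chain of which type I collagen, the main protein of the dermis, holds most copies. Its levels, in CPM scaled by edgeR's TMM factors, were 1900, 836 and 1430 in WT libraries without UV and 1730, 1130 and 1260 after it. In Vsir-/- libraries they were 1260, 1320 and 1400 without UV and 2570, 2580 and 1650 after it. The groups overlapped in WT, but every irradiated Vsir-/- library lay above every unirradiated one. In Vsirfl libraries the levels were 1420, 1340, 1940 and 2820 without UV and 3070, 3980, 2500 and 3710 after it, with 1 unirradiated library inside the irradiated range. In K14creVsirfl/fl libraries they were 2310, 2260, 1730 and 1360 without UV and 1860, 2810, 1530 and 1540 after it, again overlapping. The log2 fold changes were -0.01 ± 0.27 (SE; edgeR adjusted p = 0.98) in WT, +0.77 ± 0.27 (adjusted p = 0.0587) in Vsir-/-, +0.82 ± 0.26 (adjusted p = 0.0718) in Vsirfl and +0.02 ± 0.26 (adjusted p = 0.981) in K14creVsirfl/fl mice, so none passed the threshold.

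Col1a2 (chr6:4504814-4541544) encodes the partner chain of type I collagen. WT libraries held 1840, 995 and 1460 CPM without UV and 2200, 1360 and 1470 after it. Vsir-/- libraries held 1550, 1650 and 1700 without UV and 3090, 3400 and 2090 after it, without overlap. Col1a2 rose in Vsir-/- mice by 0.81 ± 0.25 on the log2 scale (edgeR adjusted p = 0.0363), from a mean of 1630 to 2860 CPM. Vsirfl libraries held 974, 765, 1250 and 1500 without UV and 1600, 2340, 1490 and 1910 after it. K14creVsirfl/fl libraries held 1180, 1340, 1260 and 1140 without UV and 887, 1700, 1030 and 995 after it. The changes outside Vsir-/- mice were +0.23 ± 0.25 in WT (adjusted p = 0.587), +0.71 ± 0.23 in Vsirfl (adjusted p = 0.0684) and -0.10 ± 0.23 in K14creVsirfl/fl mice (adjusted p = 0.837). The call in Vsir-/- mice was lost without any single library other than irradiated library 3 (adjusted p from 0.0836 to 0.142). It was also lost with hair follicle and muscle scores as covariates (+0.91, adjusted p = 0.0621).

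Col3a1 (chr1:45311538-45349706) encodes type III collagen, which is co-assembled with type I in skin fibrils. WT libraries held 3670, 2030 and 3550 CPM without UV and 3160, 2270 and 3140 after it, and Vsir-/- libraries 2710, 2690 and 3420 without UV and 4960, 5050 and 4300 after it. The Vsir-/- groups did not overlap, and Col3a1 rose there by 0.70 ± 0.23 on the log2 scale (edgeR adjusted p = 0.0435). The call was lost without any single one of the 6 libraries (adjusted p from 0.0558 to 0.148). It was also lost with hair follicle and muscle scores as covariates (+0.79, adjusted p = 0.0641). Vsirfl libraries held 761, 921, 1780 and 929 without UV and 1390, 2010, 2150 and 1680 after it, and K14creVsirfl/fl libraries 791, 976, 1220 and 638 without UV and 804, 1760, 1090 and 743 after it. Unirradiated Vsirfl library 3 lay within the irradiated range. The changes were -0.11 ± 0.23 in WT (adjusted p = 0.783), +0.72 ± 0.30 in Vsirfl (adjusted p = 0.167) and +0.28 ± 0.30 in K14creVsirfl/fl mice (adjusted p = 0.611). Beside these fibrillar values, the fibroblast markers other than collagens summed to 3250 to 3710 CPM without UV and 4610 to 5340 after it in Vsir-/- mice. In Vsirfl mice they summed to 1420 to 2270 CPM without UV and 2130 to 3370 after it. In WT mice, where Col3a1 was not called, they summed to 2480 to 3370 CPM without UV and 3130 to 4250 after it. Of these 11 markers 3 rose and 1 fell in WT, 4 rose and 1 fell in Vsir-/-, 2 rose in Vsirfl and none was called in K14creVsirfl/fl mice (4 at an unadjusted edgeR p under 0.05). Among all genes 18.7, 22.4, 7.62 and 9.72% were called in the same order, and 5007 of 19718 had such an unadjusted p in K14creVsirfl/fl mice. The part of fibroblast content in the collagen changes was not tested.

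**Figure D3:**
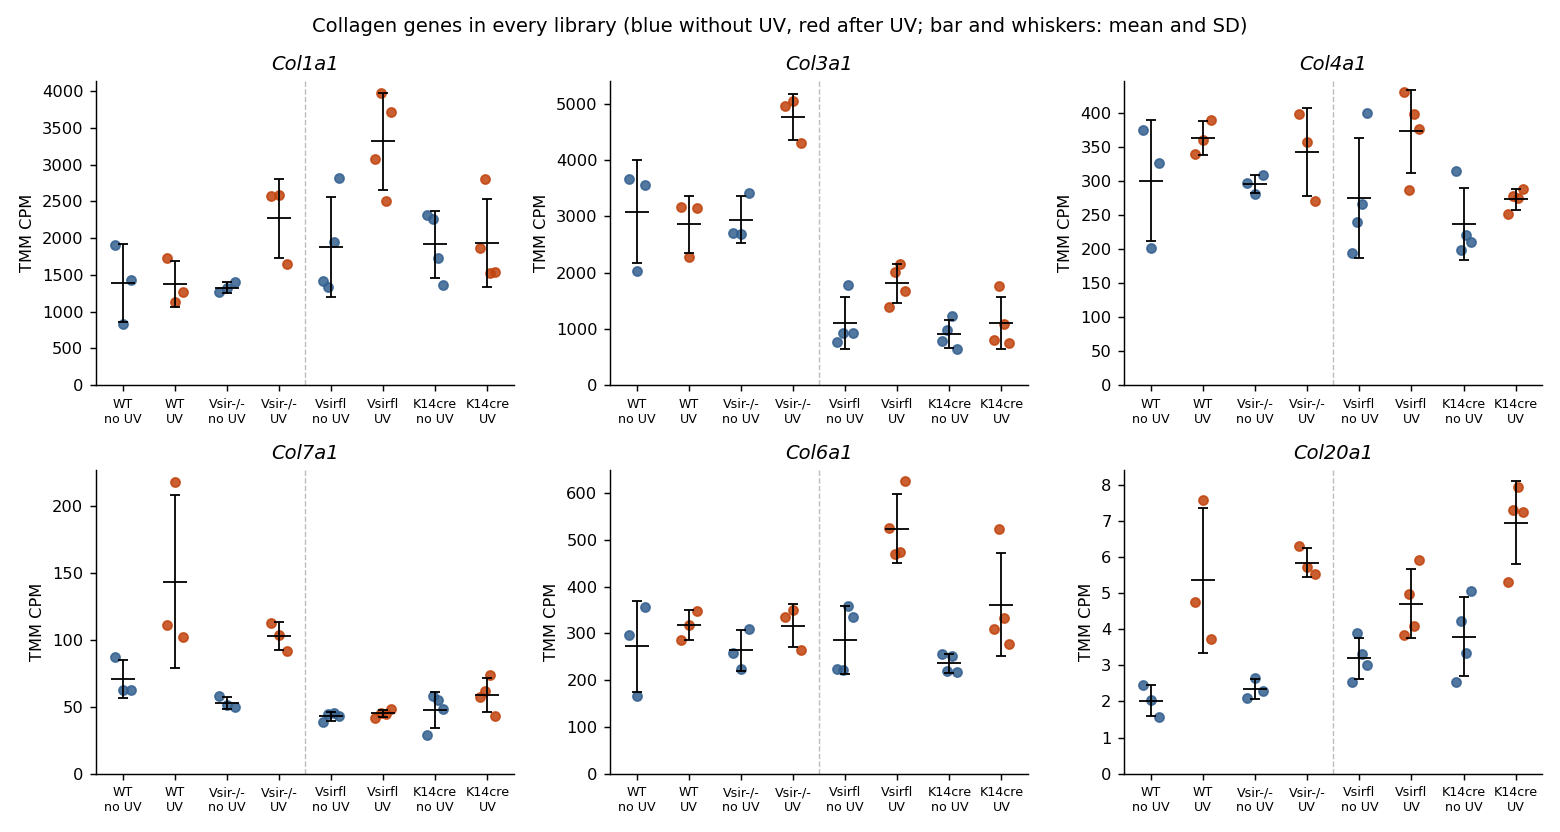
Levels of 6 collagen genes in every library in TMM-scaled CPM, blue without UV and red after UV, bars and whiskers for the mean and SD; K14cre stands for K14creVsirfl/fl, and the dashed line separates the experiments. The 3 irradiated Vsir-/- libraries of Col3a1 lie between 4300 and 5050, above all other whole-body libraries, and the 4 irradiated Vsirfl libraries of Col6a1 lie between 469 and 627, above the unirradiated ones at 221 to 359.

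Type V collagen sits inside type I fibrils and sets their diameter. Col5a1 measured 160, 102 and 162 CPM in WT without UV and 164, 125 and 136 after it, and 157, 138 and 172 in Vsir-/- without UV and 196, 222 and 161 after it. In the keratinocyte experiment it measured 72.2, 82.1, 173 and 143 in Vsirfl without UV and 161, 185, 205 and 195 after it, and 98.5, 112, 95.6 and 74.5 in K14creVsirfl/fl without UV and 99.3, 168, 88.7 and 84.7 after it. The log2 fold changes, from 0.00 in WT to +0.66 ± 0.26 in Vsirfl mice, passed no test, and all pairs of groups overlapped. Col5a2 encodes the partner chain. It measured 340, 210 and 366 CPM in WT without UV and 318, 273 and 331 after it, and 240, 258 and 328 in Vsir-/- without UV and 371, 376 and 330 after it. In Vsirfl mice it measured 282, 160, 281 and 189 without UV and 252, 392, 333 and 270 after it, and in K14creVsirfl/fl mice 190, 164, 190 and 128 without UV and 148, 283, 185 and 138 after it. Its changes ran from +0.01 in WT to +0.45 ± 0.24 in Vsirfl mice and were not called, although the Vsir-/- groups did not overlap. Col5a3 changed by +0.22 to +0.51 without a call.

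Col27a1, a minor fibrillar collagen of cartilage and other tissues, rose in Vsir-/- mice by 1.00 ± 0.27 on the log2 scale (edgeR adjusted p = 0.0183). It held 4.31, 2.97 and 4.23 CPM there without UV and 6.21, 7.34 and 9.45 after it, without overlap. In WT libraries it held 5.6, 5.08 and 9.85 without UV and 9.72, 12.1 and 10.4 after it (+0.65 ± 0.27, adjusted p = 0.106). Unirradiated libraries 2 and 3 and irradiated library 3 were each needed for the Vsir-/- call (adjusted p from 0.0509 to 0.0883 without one). In the keratinocyte experiment it scattered, with 19.4, 29.5, 6 and 12.4 in Vsirfl without UV and 9.42, 5.56, 6.9 and 18.6 after it. K14creVsirfl/fl libraries held 9.37, 7.86, 6.25 and 8.58 without UV and 29.8, 6.93, 7.27 and 7.35 after it, and neither change was called. The remaining fibrillar genes, Col2a1, Col11a1, Col11a2 and Col24a1, were called in no UV comparison. Of these, Col11a2 changed by +1.28 ± 0.45 in Vsir-/- mice (adjusted p = 0.0586), and Col2a1 had 0 to 48 counts per library.

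Among the basement membrane collagens, Col7a1 (chr9:108953586-108984875), whose product forms anchoring fibrils, rose in both genotypes of the whole-body experiment. It measured 87.4, 62.5 and 62.4 CPM in WT without UV and 111, 218 and 102 after it, and 58.4, 51.2 and 50 in Vsir-/- without UV and 113, 104 and 91.9 after it. Neither pair of groups overlapped. The log2 fold changes were +1.02 ± 0.25 in WT (edgeR adjusted p = 0.013) and +0.95 ± 0.25 in Vsir-/- mice (adjusted p = 0.0155). The WT call was lost without unirradiated library 2 (+0.97, adjusted p = 0.0501). Without irradiated library 2, the highest, the WT change fell to +0.57 (adjusted p = 0.0414). The Vsir-/- call was lost without irradiated library 1 or unirradiated library 2 or 3 (adjusted p from 0.059 to 0.0692). With hair follicle and muscle scores as covariates the Vsir-/- call was lost too (+0.71, adjusted p = 0.0866), while that in WT held. In the keratinocyte experiment Col7a1 measured 38.4, 44.8, 45.1 and 43.3 in Vsirfl without UV and 41.6, 45.4, 45 and 48.4 after it. K14creVsirfl/fl libraries held 28.9, 58.5, 55.4 and 48.3 without UV and 57.2, 61.8, 73.8 and 42.9 after it. Those changes, +0.07 ± 0.19 (adjusted p = 0.865) and +0.30 ± 0.19 (adjusted p = 0.344), were not called. In a joint edgeR fit of both experiments, in 4 groups of 3 and 4 of 4 libraries, the UV effect of Col7a1 in WT exceeded that in Vsirfl mice by 0.97 (95% interval 0.33 to 1.62, edgeR adjusted p = 0.123), short of the threshold.

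Col4a6, a minor chain of type IV collagen, measured 8.97, 16.7 and 14.5 CPM in WT without UV and 21, 24.4 and 19.7 after it. It rose there by 0.70 ± 0.22 on the log2 scale (edgeR adjusted p = 0.0434) without overlap. The call was lost without any single library except unirradiated library 2 (adjusted p from 0.0625 to 0.125). Hair follicle and muscle scores as covariates also ended this call of Col4a6 (+0.69, adjusted p = 0.114). In Vsir-/- mice it measured 22.1, 17.1 and 14.5 without UV and 22.5, 22.9 and 24.1 after it (+0.37 ± 0.22, adjusted p = 0.259), with 22.1 lying just under the lowest irradiated value. It measured 17.3, 12.8, 12.2 and 21 in Vsirfl mice without UV and 11.3, 19.9, 5.7 and 11.8 after it. In K14creVsirfl/fl mice it measured 16.6, 26.3, 16.4 and 33.2 without UV and 12, 20.5, 23.2 and 24.4 after it, and both changes lay below 0 (-0.38 and -0.21) without a call.

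Col4a1 and Col4a2 encode the chains of the common type IV network of vessels, muscle and the epidermal junction. Col4a1 measured 374, 201 and 326 CPM in WT without UV and 340, 360 and 389 after it, and 297, 281 and 308 in Vsir-/- without UV and 398, 357 and 271 after it. It measured 194, 239, 266 and 399 in Vsirfl without UV and 430, 287, 398 and 376 after it, and 315, 199, 221 and 210 in K14creVsirfl/fl without UV and 252, 277, 275 and 288 after it. The groups overlapped in every genotype, and the log2 fold changes of +0.21 to +0.44 were not called. Col4a2 measured 202, 105 and 140 CPM in WT without UV and 187, 245 and 191 after it, and 140, 131 and 140 in Vsir-/- without UV and 225, 189 and 128 after it. It measured 115, 143, 168 and 215 in Vsirfl without UV and 224, 163, 238 and 200 after it, and 177, 124, 134 and 125 in K14creVsirfl/fl without UV and 144, 163, 156 and 151 after it. Its changes of +0.13 to +0.47 were not called either. Col4a3, Col4a4 and Col4a5 were called in no comparison, with log2 fold changes between -0.39 and +0.64.

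Col15a1 and Col18a1 encode multiplexins, which lie at the outer face of basement membranes. Col15a1 measured 100, 101 and 144 CPM in WT without UV and 128, 104 and 145 after it, and 127, 122 and 138 in Vsir-/- without UV and 135, 156 and 112 after it. It measured 82.9, 94.7, 138 and 145 in Vsirfl without UV and 143, 132, 141 and 168 after it, and 113, 104, 91 and 90.8 in K14creVsirfl/fl without UV and 91.1, 155, 101 and 107 after it. All pairs overlapped, and changes of +0.06 to +0.34 passed no test. Col18a1 measured 179, 87.5 and 84.7 CPM in WT without UV and 107, 172 and 104 after it, and 78.8, 79.5 and 69.3 in Vsir-/- without UV and 90.9, 71 and 60.9 after it. It measured 90.5, 138, 121 and 145 in Vsirfl without UV and 139, 119, 149 and 129 after it, and 138, 119, 113 and 70.2 in K14creVsirfl/fl without UV and 139, 109, 138 and 76.3 after it. Its groups overlapped as well, and changes of -0.03 to +0.13 were not called.

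The beaded collagen genes Col6a1 (chr10:76708792-76726168) and Col6a2 (chr10:76595762-76623630) encode chains that assemble with the product of Col6a3. Col6a1 measured 225, 221, 359 and 336 CPM in Vsirfl without UV and 526, 469, 475 and 627 after it, and Col6a2 243, 201, 290 and 295 without UV and 456, 459, 383 and 526 after it. Every irradiated library lay above every unirradiated one for both. Col6a1 rose by 0.88 ± 0.20 on the log2 scale (edgeR adjusted p = 0.0137) and Col6a2 by 0.83 ± 0.20 (adjusted p = 0.0211), and these were the only 2 of the 40 tested genes whose groups did not overlap in Vsirfl mice, beside 14.5% of all genes. Both calls were lost without unirradiated library 2 or irradiated library 4 (adjusted p from 0.0502 to 0.0775). Without both shallow libraries the values were +0.78 (adjusted p = 0.047) and +0.80 (adjusted p = 0.0587). Skeletal muscle markers summed to 12300 to 20500 CPM in Vsirfl mice without UV and 15900 to 41600 after it, and adipocyte markers to 187 to 270 and 318 to 611. None of the 10 and 6 markers was called there by edgeR (6 and 3 at an unadjusted p under 0.05, beside 4520 of all 19718 genes). The part of these tissues in the change of Col6a1 and Col6a2 was not tested.

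In K14creVsirfl/fl mice Col6a1 measured 255, 220, 252 and 217 CPM without UV and 310, 524, 334 and 278 after it, and Col6a2 217, 170, 201 and 136 without UV and 254, 402, 282 and 194 after it. The log2 fold changes of +0.61 ± 0.20 and +0.64 ± 0.20 missed the threshold (edgeR adjusted p = 0.0633 and 0.0569), although the groups of Col6a1 did not overlap. In WT mice Col6a1 measured 296, 166 and 356 without UV and 285, 318 and 349 after it, and Col6a2 299, 155 and 325 without UV and 248, 275 and 311 after it. In Vsir-/- mice Col6a1 measured 258, 224 and 310 without UV and 335, 350 and 264 after it, and Col6a2 213, 190 and 278 without UV and 275, 268 and 224 after it. All of these whole-body groups overlapped, with changes of +0.10 to +0.26.

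Col6a3 encodes the longest chain of the type VI trimer. It measured 336, 180 and 425 CPM in WT without UV and 402, 361 and 443 after it, and 255, 255 and 328 in Vsir-/- without UV and 438, 483 and 376 after it, the latter without overlap. It measured 388, 311, 560 and 415 in Vsirfl without UV and 569, 461, 646 and 715 after it, and 333, 251, 280 and 156 in K14creVsirfl/fl without UV and 348, 449, 350 and 206 after it. Its changes of +0.36, +0.63, +0.51 and +0.41 in the order of genotypes above were not called (lowest edgeR adjusted p = 0.0832, in Vsir-/- mice). Col6a4, Col6a5 and Col6a6 were expressed at 0.0384 to 1.29 CPM/kb on average and were not called. Col6a6 in WT mice, at +0.68 (adjusted p = 0.0698), passed with DESeq2 (+0.69, adjusted p = 0.036) and without unirradiated library 3 (+0.94, adjusted p = 0.0299). Col6a5 measured 2.9, 3.42, 4.95 and 2.26 CPM in K14creVsirfl/fl without UV and 6.63, 9.22, 6.03 and 4.12 after it (+0.94 ± 0.34, adjusted p = 0.0912). It passed there with DESeq2 (+0.95, adjusted p = 0.0406), with the replicate block (+0.99, adjusted p = 0.0449) and with hair follicle and muscle scores as covariates (+1.41, adjusted p = 0.0347), and in Vsir-/- mice with the block (+0.77, adjusted p = 0.0452).

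Among the other types, Col20a1 (chr2:180986535-181018363), a FACIT collagen of low abundance, was called in 3 of the 4 comparisons. It measured 2.45, 2.05 and 1.58 CPM in WT without UV and 4.74, 7.58 and 3.73 after it, and 2.11, 2.66 and 2.29 in Vsir-/- without UV and 6.31, 5.71 and 5.52 after it. The groups did not overlap in either. Col20a1 rose by 1.40 ± 0.28 on the log2 scale in WT (edgeR adjusted p = 0.00431) and by 1.31 ± 0.27 in Vsir-/- mice (adjusted p = 0.00456), and both calls held without any single library. In K14creVsirfl/fl mice it measured 2.53, 4.24, 3.34 and 5.06 without UV and 5.31, 7.29, 7.95 and 7.25 after it, again without overlap, and rose by 0.87 ± 0.24 (adjusted p = 0.0316). That call was lost without any single library except unirradiated library 4 or irradiated library 1 (adjusted p from 0.0604 to 0.0915). Hair follicle and muscle scores as covariates also ended that call of Col20a1 (+0.82, adjusted p = 0.0831), but not those in WT and Vsir-/- mice. In Vsirfl mice it measured 2.55, 3.9, 3.31 and 3.01 without UV and 3.84, 4.98, 4.09 and 5.93 after it, where 1 irradiated library lay just below the highest unirradiated one and the change of +0.55 ± 0.24 was not called (adjusted p = 0.186).

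Col16a1, another FACIT collagen, rose in Vsir-/- mice by 0.65 ± 0.19 on the log2 scale (edgeR adjusted p = 0.0273). It measured 79.6, 72.9 and 83 CPM there without UV and 134, 129 and 106 after it, without overlap. The call was lost without any single library except irradiated library 3 (adjusted p from 0.0674 to 0.114). With hair follicle and muscle scores as covariates it was lost too (+0.52, adjusted p = 0.117). WT libraries held 137, 92.1 and 85.7 without UV and 139, 176 and 120 after it (+0.47 ± 0.19, adjusted p = 0.108). Levels in the keratinocyte experiment were lower, 32.7 to 75 CPM, with changes of +0.07 and -0.07. Col10a1, a short-chain collagen known from the growth plate of cartilage, was called lower in Vsir-/- mice at -2.35 ± 0.67 (adjusted p = 0.0236), on 20, 47 and 17 counts without UV and 2, 4 and 8 after it. This call was lost without unirradiated library 2 or any single irradiated library (adjusted p from 0.0543 to 0.124). WT libraries held 0 or 1 count of Col10a1 without UV and 0, 3 and 0 after it. The full list of chondrocyte markers summed to 1.21 to 1.82 CPM in Vsir-/- libraries without UV and 1.22 to 2.21 after it. The part of cartilage in the Col10a1 counts was not tested.

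Col12a1 and Col14a1 encode FACIT collagens on the surface of type I fibrils. Col12a1 measured 188, 104 and 136 CPM in WT without UV and 238, 135 and 145 after it, and 121, 149 and 133 in Vsir-/- without UV and 167, 125 and 91.1 after it. It measured 138, 127, 107 and 301 in Vsirfl without UV and 191, 289, 129 and 194 after it, and 338, 105, 99.2 and 75.3 in K14creVsirfl/fl without UV and 178, 128, 117 and 88.1 after it. Both unirradiated groups of the keratinocyte experiment held 1 library far above the rest, and changes of -0.27 to +0.28 were not called. Col14a1 measured 35.8, 27.5 and 83.9 CPM in WT without UV and 71.9, 71.4 and 120 after it, and 46.6, 50.9 and 62.2 in Vsir-/- without UV and 56.3, 101 and 83.3 after it. It measured 70.8, 61, 79.4 and 91.6 in Vsirfl without UV and 134, 131, 91.1 and 172 after it, and 75.7, 48.2, 54.6 and 48.9 in K14creVsirfl/fl without UV and 47, 124, 46.1 and 56.5 after it. Its changes were +0.84 ± 0.36 in WT, +0.59 ± 0.36 in Vsir-/-, +0.80 ± 0.29 in Vsirfl and +0.27 ± 0.29 in K14creVsirfl/fl mice, with adjusted p-values of 0.124, 0.266, 0.103 and 0.605 from edgeR.

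Col8a2, a short-chain collagen of vessel walls and the cornea, had estimates below 0 in all 4 UV comparisons. It measured 21.2, 16.4 and 9.71 CPM in WT without UV and 9.84, 7.83 and 3.04 after it, and 18.5, 18.1 and 10.7 in Vsir-/- without UV and 6.9, 9.71 and 3.44 after it. The Vsir-/- groups did not overlap, and the WT groups overlapped by 1 library. The changes were -1.19 ± 0.44 (edgeR adjusted p = 0.0768) and -1.25 ± 0.44 (adjusted p = 0.0602). With the replicate block they became -1.26 (adjusted p = 0.00389) and -1.31 (adjusted p = 0.00268), although WT libraries share only a number (r from -0.38 to 0.33). DESeq2 called both changes too (adjusted p = 0.0346 and 0.0221). The fit with hair follicle and muscle scores as covariates also did, at -1.84 and -1.28 (adjusted p = 0.00408 and 0.0173). In the keratinocyte experiment the changes were -0.44 in Vsirfl and -0.64 in K14creVsirfl/fl mice, not called. With those covariates they were -1.45 (adjusted p = 0.0336) and -1.65 (adjusted p = 0.017), whereas without unirradiated Vsirfl library 3 the former was +0.08 (adjusted p = 0.951). Col8a1, Col13a1, Col19a1, Col22a1, Col23a1, Col25a1, Col28a1 and Col9a3 were tested in all 4 comparisons and called in none. Col9a2 and Col10a1 passed the filter on low counts in the whole-body experiment only, Col26a1 in the keratinocyte experiment only, and Col9a1 in neither.

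The design also compared genotypes at each state and the UV effects between genotypes. No collagen gene was called between Vsir-/- and WT mice without UV (0.00982% of all genes called) or after it (0.0442%), or in the difference of the UV effects (0%). At an unadjusted edgeR p under 0.05 there were 10, 7 and 1 of the 41 genes, against 3219, 3071 and 313 of all 20365. DESeq2 called 1 collagen gene without UV, Col10a1, beside 2.65% of all genes, and none in the others. The 7 genes with an unadjusted edgeR p under 0.05 after UV included Col3a1 (+0.74 ± 0.23, unadjusted p = 0.00639, adjusted p = 0.214), Col1a2 (+0.77 ± 0.25, adjusted p = 0.235) and Col1a1 (+0.72 ± 0.27, adjusted p = 0.273), all higher in Vsir-/- mice. Every irradiated Vsir-/- library of Col3a1 lay above every irradiated WT library. Col6a5 stood at +1.14 ± 0.35 (adjusted p = 0.213) and Col18a1, in the other direction, at -0.78 ± 0.28 (adjusted p = 0.259). The UV effect on Col3a1 was larger in Vsir-/- than in WT mice by 0.81 (95% interval 0.11 to 1.5, unadjusted p = 0.0259, adjusted p = 1). Without UV the lowest p belonged to Col10a1 (adjusted p = 0.0788), on 20, 47 and 17 counts in Vsir-/- mice and 0, 1 and 0 in WT mice. Groups did not overlap for 7 of the 41 genes without UV, beside 24.4% of all genes, and for 8 after it, beside 22.2%.

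Between K14creVsirfl/fl and Vsirfl mice no collagen gene was called without UV, after UV or in the difference of the UV effects, and 0% of all 19718 genes were called in each. After UV, 13 of the 40 collagen genes had an unadjusted edgeR p under 0.05, beside 1046 of all 19718 genes, and 11 of these 13 were lower in K14creVsirfl/fl mice. Without UV there were 2 of 40, Col6a3 and Col6a2, beside 928 of all genes. After UV the fibrillar genes had a median log2 difference of -0.72 and the beaded genes -0.52, beside 0.00 for all genes. Col1a1 stood at -0.78 ± 0.26, Col1a2 at -0.67 ± 0.23, Col3a1 at -0.72 ± 0.30, Col5a1 at -0.76 ± 0.26 and Col5a2 at -0.73 ± 0.24. Col6a2 (-0.69 ± 0.20, unadjusted p = 0.0038), Col6a3 (-0.82 ± 0.25) and Col14a1 (-0.94 ± 0.29) were lower too, and Col20a1 (+0.56 ± 0.24) and Col4a6 (+0.72 ± 0.34) were higher. The adjusted p was 0.865 for all 13, and among the 40 genes only the groups of Col6a3 did not overlap, beside 2.73% of all genes. The UV effects on Col1a1 and Col1a2 were smaller in K14creVsirfl/fl than in Vsirfl mice by -0.80 each (95% intervals -1.59 to -0.01 and -1.48 to -0.13, adjusted p = 1). DESeq2 called no collagen gene in any of these 3 comparisons. In the summed fibroblast markers the irradiated groups overlapped, at 2130 to 3370 CPM in Vsirfl and 1170 to 3890 in K14creVsirfl/fl mice. All 10 skeletal muscle markers had estimates above 0 there (median +0.93, 5 at an unadjusted p under 0.05), and all 7 macrophage markers (median -0.61) and all 11 anagen hair follicle markers (median -3.11) had estimates below 0, none of them called. Irradiated libraries summed to 15900 to 41600 CPM of muscle markers in Vsirfl and 21700 to 66800 in K14creVsirfl/fl mice, and their part in the collagen differences was not tested.

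Set side by side, the UV effects of the 39 genes tested in every genotype had a Pearson correlation of 0.78 (Spearman 0.54) between WT and Vsir-/- mice and 0.50 (Spearman 0.50) between Vsirfl and K14creVsirfl/fl mice. Between WT and Vsirfl mice, the controls of the 2 experiments, it was 0.34 (Spearman 0.07). The other pairs between experiments gave 0.31 (Spearman 0.28) for WT and K14creVsirfl/fl, 0.34 (0.26) for Vsir-/- and Vsirfl, and 0.43 (0.51) for Vsir-/- and K14creVsirfl/fl mice. These are correlations across genes, which are not independent replicates, and the points of 1 experiment share its normalization. Apart from Col7a1, the joint fit put 4 of 42 genes at an unadjusted edgeR p under 0.05 for a difference in UV effect between WT and Vsirfl mice: Col4a6 (+1.09 ± 0.45), Col20a1 (+0.87 ± 0.37), Col6a2 (-0.70 ± 0.32) and Col22a1 (-1.74 ± 0.80). Of all 21851 genes, 2925 had such an unadjusted p. None of these 4 genes was called, with edgeR adjusted p-values of 0.265 to 0.337, where 1.2% of all genes were called. Experiment, batch and genetic background cannot be told apart in this comparison.

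The proportions between partner chains were examined as ratios of counts within a library, which need no scaling between libraries. Col1a2 counts were 0.972 to 1.32 times those of Col1a1 in the whole-body libraries (mean 1.19) and 0.477 to 0.839 times in the keratinocyte libraries (mean 0.608). Col3a1 counts were 1.83 to 2.6 times those of Col1a1 in the former (mean 2.19) and 0.329 to 0.918 times in the latter (mean 0.559). The experiments did not overlap in either ratio. Within the whole-body experiment the Col1a2 to Col1a1 ratio of WT libraries without UV (0.972 to 1.19) lay below those of both Vsir-/- groups (1.21 to 1.25 without UV and 1.2 to 1.32 after it), a difference that was not tested, and the groups overlapped in Col3a1 to Col1a1. Col4a2 to Col4a1 ran from 0.43 to 0.679 and from 0.521 to 0.63, and Col6a3 to Col6a1 from 0.989 to 1.42 and from 0.719 to 1.72. The effect of UV on each ratio was tested with an exact two-sided permutation test within genotypes, 8 tests in all, and none passed after adjustment (lowest adjusted p = 0.12). The smallest p this test could give was 0.005 in the whole-body experiment and 0.000408 in the keratinocyte experiment. In the former a single ratio thus had little room to pass after adjustment over 8 tests. The largest shifts were those of Col6a3 to Col6a1, +0.26 on the log2 scale in the whole-body experiment (exact p = 0.015) and -0.27 in the keratinocyte experiment (exact p = 0.0657). Without irradiated WT library 2 the former was +0.30 with an adjusted p of 0.04.

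**Figure D4:**
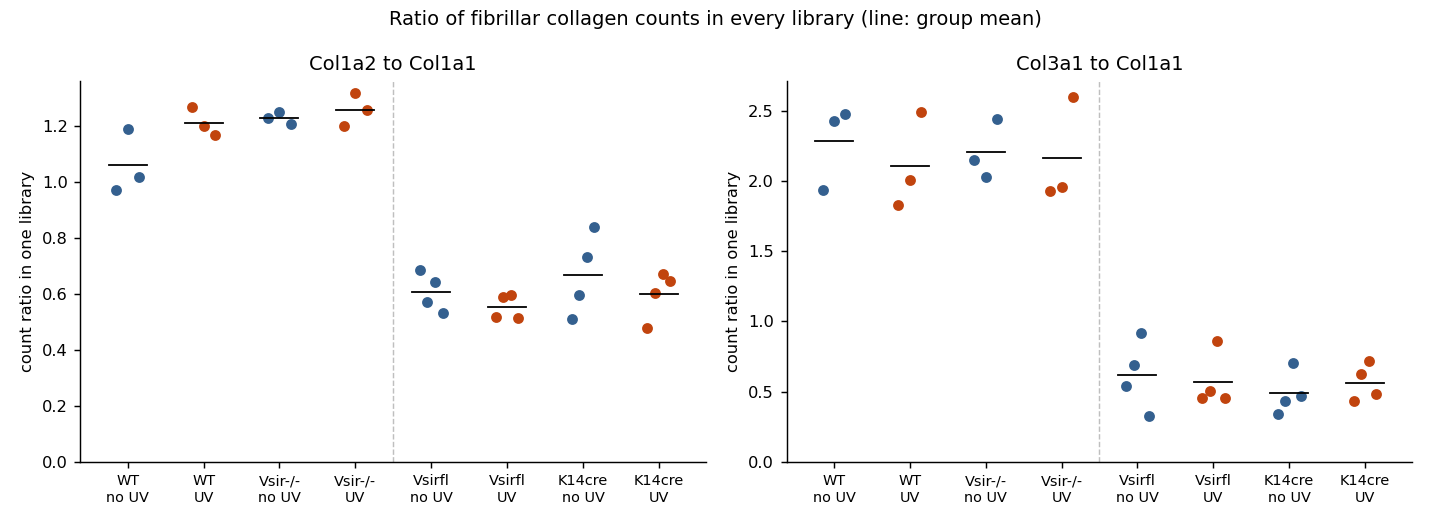
Counts of Col1a2 (left) and Col3a1 (right) divided by those of Col1a1 in every library, blue without UV and red after UV, lines for group means; K14cre stands for K14creVsirfl/fl, and the dashed line separates the experiments. All whole-body libraries lie above all keratinocyte libraries in both panels, at 0.972 to 1.32 against 0.477 to 0.839 on the left and 1.83 to 2.6 against 0.329 to 0.918 on the right.

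Col11a1, a fibrillar collagen that nucleates cartilage fibrils, was the most variable member within groups of the keratinocyte experiment, with a median coefficient of variation of 109%. Only groups in which a gene averaged at least 1 CPM were compared. In the whole-body experiment its median was 31.6%, and Col8a2 led there at 41.7%. It measured 17.1, 14.2, 4.84 and 89.8 CPM in Vsirfl without UV and 57.4, 7, 5.9 and 57.2 after it. In K14creVsirfl/fl it measured 79.3, 5.42, 6.02 and 6.28 without UV and 18.8, 3.29, 6.17 and 4.77 after it, and in the whole-body libraries 4.56 to 15.9. The 4 libraries above 50 CPM were also the 4 with the highest mean log2 level of anagen hair follicle markers, at 6.43, 6.84, 7.98 and 8.67, where the range over all keratinocyte libraries was 0.41 to 8.67 and that of the whole-body libraries -0.55 to 2.90. The same libraries, unirradiated Vsirfl library 4 and K14creVsirfl/fl library 1, held the high Col12a1 values of 301 and 338 CPM. The 2 irradiated ones, Vsirfl libraries 1 and 4, held 191 and 194. Irradiated Vsirfl library 2, not among the 4, held 289 CPM of Col12a1 beside 7 CPM of Col11a1. The part of hair follicle content in these values was not tested.

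**Figure D5:**
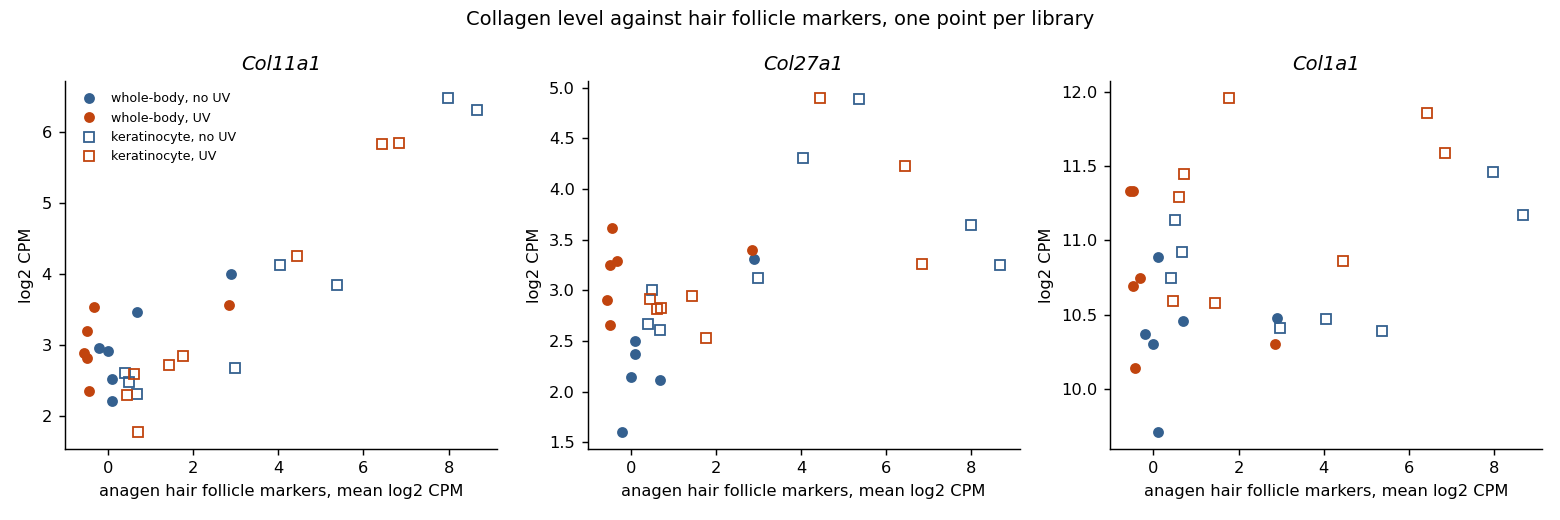
Level of Col11a1, Col27a1 and Col1a1 in log2 CPM (vertical axes) against the mean log2 CPM of anagen hair follicle markers (horizontal axes), one point per library, filled for whole-body and open for keratinocyte libraries, blue without UV and red after it. The 4 libraries with follicle marker means of 6.43 to 8.67 hold the 4 highest Col11a1 levels, whereas the highest Col27a1 levels, 29.8 and 29.5 CPM, lie at means of 4.45 and 5.37.

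Lists of genes that make, process, bind, sense or degrade collagen were set beside the collagens in the 4 UV comparisons. The counts below stand beside 18.7, 22.4, 7.62 and 9.72% of all genes called in WT, Vsir-/-, Vsirfl and K14creVsirfl/fl mice. An unadjusted edgeR p under 0.05 was held by 6545 and 7088 of all 20365 whole-body genes and by 4520 and 5007 of all 19718 keratinocyte genes. Of 20 genes for chain synthesis, folding and secretion none was called in any genotype, with medians of +0.11 in WT, +0.27 in Vsir-/-, +0.38 in Vsirfl and +0.19 in K14creVsirfl/fl mice. At an unadjusted edgeR p under 0.05 there were 1, 8, 8 and 2 of the 20 in the same order. Among them Serpinh1, the collagen chaperone HSP47, changed by +0.02, +0.33, +0.57 and +0.23 in the same order, P4ha1, a prolyl hydroxylase subunit, by +0.04, -0.23, +0.33 and -0.04, and Plod2, a lysyl hydroxylase, by -0.25, -0.18, +0.61 and +0.33.

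Of 7 genes for propeptide cleavage, 2 rose and 1 fell in WT mice and 5 rose and 1 fell in Vsir-/- mice, and none was called in the keratinocyte experiment, where edgeR gave 2 in Vsirfl and 0 in K14creVsirfl/fl mice at an unadjusted p under 0.05. Adamts2, the protease that removes the amino-terminal propeptide of fibrillar collagens, rose by 0.79 ± 0.18 on the log2 scale in WT (edgeR adjusted p = 0.00991) and by 1.01 ± 0.18 in Vsir-/- mice (adjusted p = 0.00204), and stood at +0.58 and +0.09 without a call in Vsirfl and K14creVsirfl/fl mice. Bmp1, which cleaves the carboxy-terminal propeptide, rose by 0.87 in Vsir-/- mice (adjusted p = 0.0109), and its relative Tll1 fell by 0.72 in WT and by 0.92 in Vsir-/- mice (adjusted p = 0.0336 and 0.00834). Of 5 crosslinking genes, Lox, which oxidizes lysines for crosslinks, rose by 1.04 ± 0.23 in WT (adjusted p = 0.00796) and by 1.20 ± 0.23 in Vsir-/- mice (adjusted p = 0.00286). It stood at +1.37 ± 0.41 in Vsirfl (adjusted p = 0.0563) and +0.35 in K14creVsirfl/fl mice. Its relatives Loxl2 (+0.99, adjusted p = 0.0436) and Loxl4 (+0.89, adjusted p = 0.0224) rose in Vsirfl mice, and Loxl4 rose in K14creVsirfl/fl mice (+0.86, adjusted p = 0.023). The Loxl2 call was lost without any single library except unirradiated library 3.

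Of 14 genes for fibril-binding proteins, 3, 5, 2 and 0 rose in WT, Vsir-/-, Vsirfl and K14creVsirfl/fl mice, and none fell. In the last, 3 of the 14 had an unadjusted edgeR p under 0.05. The list shares Dcn, Lum and Dpt with the fibroblast markers counted above, so the 2 counts are not separate. Tnxb, the tenascin that links fibrils, rose by 1.14 ± 0.21 in WT (edgeR adjusted p = 0.00333) and by 0.74 ± 0.21 in Vsir-/- mice (adjusted p = 0.0232), and Ogn, a small proteoglycan, by 0.91 and 1.03 (adjusted p = 0.0143 and 0.00598). Dcn, which encodes decorin, rose by 0.58 ± 0.18 in Vsir-/- mice (adjusted p = 0.0357), a call lost without any single one of the 6 libraries, and stood at +0.42, +0.56 and +0.22 in WT, Vsirfl and K14creVsirfl/fl mice. Fn1, fibronectin, rose by 1.41 ± 0.26 in Vsirfl mice (adjusted p = 0.00343) and by 0.75 in WT mice (adjusted p = 0.032), and Dpt, dermatopontin, by 1.39 in Vsirfl mice (adjusted p = 0.0311). Of 9 collagen receptor genes, Itga10 rose by 1.00 in WT and by 1.09 in Vsir-/- mice (adjusted p = 0.0309 and 0.0182), Lair1, an inhibitory receptor of immune cells, fell by 1.41 in WT mice (adjusted p = 0.0306), and Itga2 fell by 0.79 in K14creVsirfl/fl mice (adjusted p = 0.0492).

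Of the collagen-cleaving genes, 6 tested in the whole-body and 7 in the keratinocyte experiment, only Mmp8, the neutrophil collagenase, was called, at +2.49 ± 0.67 in Vsir-/- mice (edgeR adjusted p = 0.0181). Mmp2 changed by +0.12, +0.59, +0.45 and +0.45 and Mmp13 by -1.41, +0.42, -0.57 and -0.74 in the order of genotypes above, without a call. Of the 20 genes reported here for the transforming growth factor beta pathway, a known inducer of collagen genes, 7 fell in WT and 7 in Vsir-/- mice. Of all 20365 genes, 2003 and 2252 were called lower there. Ski, a repressor of the pathway, fell by 0.87 and 1.04 (adjusted p = 0.00159 and 0.000465), the receptor gene Tgfbr1 by 1.15 and 1.16 (adjusted p = 0.0131 and 0.0097) and Smad2, a signal transducer, by 0.64 and 0.72 (adjusted p = 0.00768 and 0.00309), in WT and Vsir-/- mice. In K14creVsirfl/fl mice Smad2 alone was called, at -0.58 (adjusted p = 0.0032). The ligand Tgfb1 changed by -0.51, -0.29, +0.09 and +0.10 and Ccn2, a known target, by -0.21, -0.83, +1.54 and +0.44, with no call.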

How the data were processed

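RNA of 28 skin libraries was sequenced from ribosome-depleted total RNA (100 base paired reads, stranded kit), per the labels' protocols. The submitters' processing notes name cutadapt 4.6, HISAT2 2.1.0, featureCounts of the Subread package and the build GRCm38. Strand and multimapping settings are not given in the sources used here. The deposited values are raw gene counts. The coordinates of the whole-body table match GRCm38 for all 43 genes and those of the keratinocyte table for 3, so the tables were joined by identifier and coordinates come from the former.

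Groups follow the titles. Each experiment was fitted in edgeR 4.0.16 (R 4.3.3) with TMM scaling, filterByExpr, 1 coefficient per group and robust quasi-likelihood tests, adjusted over all genes at 0.05. A joint fit compared UV effects between experiments. Log2 levels used a prior count of 3. The p-values measure the spread between these samples. Ratios were tested by exact permutation. Libraries with the same number deviated together in Vsir-/- (r 0.13 to 0.18) and K14creVsirfl/fl mice (r 0.23 to 0.49), with no label that ties the numbers to a shared litter or day. No 2 libraries of a group held identical values. The fit was tested on simulated counts. Alternatives were DESeq2 1.42.0, other scaling, filter, samples and covariates.

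The members and lists were chosen with earlier results of these data known. The named genes were a fixed set of 15 abundant collagens, up to 6 called members of lowest p per comparison, and fixed pathway genes with up to 2 called ones per list. Of the growth factor pathway list, 1 gene is not reported here.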

Additional observations from a re-analysis of the deposited data

Results flagged for a closer look

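In the keratinocyte groups of 4 libraries, 80 checks used Dixon's criterion. It asks whether the highest or lowest library of a group stands apart from the other 3. Normally distributed values meet it by chance in about 1 in 20 groups. The checks used CPM without a log scale, so that rate need not hold here. The criterion was met 8 times, each time by the highest library. Col3a1 reached 1780 CPM in unirradiated Vsirfl library 3, where the other libraries of the group held 761 to 929. Col12a1 reached 301 CPM in unirradiated Vsirfl library 4 (others 107 to 138) and 338 in unirradiated K14creVsirfl/fl library 1 (others 75.3 to 105). Col14a1 reached 124 CPM in irradiated K14creVsirfl/fl library 2 (others 46.1 to 56.5), and Col27a1 reached 29.8 in irradiated K14creVsirfl/fl library 1 (others 6.93 to 7.35). Col10a1, near the limit of detection, stood at 0.0886 CPM in unirradiated Vsirfl library 2 and at 0.126 in unirradiated K14creVsirfl/fl library 4, with 0 in the others of each group. It stood at 0.658 in irradiated K14creVsirfl/fl library 1 (others 0 to 0.0497).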

How the results depend on the processing

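None of the 13 calls of collagen genes after UV changed sign under any alternative run, whereas 55 of the 149 uncalled estimates did under at least 1, among them Col8a2 in Vsirfl mice. A call requires an estimate far from 0 for its SE in these same data, so this contrast follows largely from the selection. The share of collagen genes called rose above that of all genes under 2 of 14 alternatives in WT, 2 of 14 in Vsir-/-, 5 of 16 in Vsirfl and 0 of 16 in K14creVsirfl/fl mice. The main counts of called collagen genes after UV were 3 in WT, 7 in Vsir-/-, 2 in Vsirfl and 1 in K14creVsirfl/fl mice. Of all genes, 18.7, 22.4, 7.62 and 9.72% were called in the same order. DESeq2 gave 5, 10, 4 and 4, beside 23.4, 26.4, 12.4 and 15.2% of all genes. Hair follicle and muscle scores as covariates gave 5 in WT, 5 in Vsir-/-, 5 in Vsirfl and 3 in K14creVsirfl/fl mice. The shares of all genes were then 13.2, 14.6, 9.29 and 11.1%. These covariates ended the calls of Col1a2, Col3a1, Col7a1 and Col16a1 in Vsir-/-, Col4a6 in WT and Col20a1 in K14creVsirfl/fl mice. In Vsir-/- mice they added Col8a2 and Col14a1. Fitting only the groups compared gave 1, 14 and 0 in WT, Vsir-/- and K14creVsirfl/fl mice. Of all genes, 6.8, 38.6 and 8.52% were called there, so that the 14 collagen genes (36.8%) stayed below the share of all genes. Total-count scaling and no filter each gave 0 in K14creVsirfl/fl mice, beside 9.28 and 2.75% of all genes. Total-count scaling also made 36.1% of all calls in those mice higher, against 47% with TMM. Leaving out 1 library gave 2 to 6 in WT, 1 to 6 in Vsir-/-, 0 to 6 in Vsirfl and 0 to 2 in K14creVsirfl/fl mice. The shares of all genes then ran from 13 to 20.7%, 13.5 to 15.7%, 4.38 to 7.74% and 5.82 to 9.26%. Pairs left out together were chosen after seeing the data: without WT library 3 of both states the count was 6, without both Vsir-/- libraries low in Gm42418 it was 1, and without both shallow libraries it was 1 in Vsirfl and 0 in K14creVsirfl/fl mice. These runs called 10.3, 7.1, 7.65 and 8.83% of all genes in the same order. Against WT without UV, Vsir-/- mice had 1 called gene, Col10a1, instead of 0 with total-count scaling, no filter, DESeq2 or the replicate block. Of all genes 0.0687, 0.516, 2.65 and 0.108% were called with these 4 settings. After UV the covariates called 2, Col6a5 and Col23a1, beside 1.68% of all genes. The shift of the Col6a3 to Col6a1 ratio in the whole-body experiment ran from 0.22 to 0.30 with 1 library left out and passed without irradiated WT library 2. The causes were not tested. The differences of UV effects and the comparisons of K14creVsirfl/fl with Vsirfl mice kept 0 called collagen genes under every alternative run.

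With the replicate block the counts were 4 in WT, 9 in Vsir-/-, 3 in Vsirfl and 2 in K14creVsirfl/fl mice. The shares of all genes were 18.1, 21.6, 10.8 and 12.9%. In WT and Vsirfl mice the samples share only a number, since their correlations ran from -0.38 to 0.33 and from -0.12 to 0.53. Depth limits the genes below 1 CPM/kb, where single libraries held few or no counts.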
